A study of Homo sapiens with 2 samples.

Results

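Protein kinase A is represented here by 9 genes, the 2 catalytic subunits PRKACA and PRKACB, the 4 regulatory subunits PRKAR1A, PRKAR1B, PRKAR2A and PRKAR2B, and the 3 protein kinase inhibitors PKIA, PKIB and PKIG. They were taken by gene symbol from a table of 25343 rows, each symbol had 1 row, and 8 of the 9 had a mean over both libraries of 1 CPM or more, as did 13803 rows in all. CPM counts how many of every 1000000 reads in a library belong to the gene, here with TMM scaling by the authors. The set was chosen by pathway with the CPM values of these 2 libraries already known, so the values below are a description. RNA-seq was available for 1 library of C4-2B ENZR, the enzalutamide-resistant line kept in 20 µM of the antiandrogen enzalutamide, and 1 library of C4-2B Con, the sensitive line kept beside it in DMSO. Both belong to C4-2B, a castration-resistant subline of C4-2, which goes back to LNCaP, a human prostate cancer line, and each group is a single line. The ending shC of both titles has no explanation in the labels and could stand for a control shRNA in each line.

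Protein kinase A is the main effector of the intracellular messenger cAMP. In the resting holoenzyme a dimer of regulatory subunits holds catalytic subunits inactive. Binding of cAMP to the regulatory subunits releases the catalytic activity, which phosphorylates metabolic enzymes, ion channels and transcription factors such as CREB1. The PKI proteins are small pseudosubstrates that block free catalytic subunits and carry them out of the nucleus, and A-kinase anchoring proteins tether the regulatory subunits to places in the cell. In LNCaP cells, agents that raise cAMP are known to induce a neuroendocrine-like shape and marker expression.

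The ENZR library held 23479051 reads in genes and the Con library 21024484, and 1 read was worth 0.0404 CPM in ENZR and 0.0490 CPM in Con. With 1 library per group there is no replicate, no test of the conditions and no p-value. Intervals in brackets are exact 95% binomial (Clopper-Pearson) intervals of the ratio of the read counts, called counting intervals, and cover counting error only. Log2 ratios set ENZR over Con with a pseudocount of 1 CPM added to each, which understates the change of low genes, while folds are plain CPM ratios. The prostate luminal markers were present at a summed 2521 CPM in ENZR and 4056 CPM in Con, and none of the 9 was at 0. Without KLK3 (3.72 CPM in ENZR, 1428 CPM in Con) the other 8 summed to 2518 CPM in ENZR and 2627 CPM in Con, with KRT8, EPCAM and FOLH1 higher and 5 lower in ENZR. The summed level was 24.7 CPM in ENZR and 9.95 CPM in Con for the 4 basal markers, and 46.1 CPM in ENZR and 20.6 CPM in Con for the 4 fibroblast markers. It was 4.57 CPM in ENZR and 10.5 CPM in Con for the 3 endothelial markers, and 15.2 CPM in ENZR and 19.0 CPM in Con for the 4 leukocyte markers. Nearly all of the basal sum was ITGB4 (24.6 CPM in ENZR, 9.55 CPM in Con) and of the fibroblast sum COL1A1 (44.4 CPM in ENZR, 18.1 CPM in Con), while CD68 (9.87 CPM in ENZR, 15.7 CPM in Con) and VWF (2.91 CPM in ENZR, 8.92 CPM in Con) led the leukocyte and endothelial sums. Of these 4 lists, KRT5, TP63, COL1A2, CDH5 and CD3E had no read in either library and the other 10 markers had reads in at least 1. The part of the differing marker sums in the results below was not tested. In bulk RNA, fewer cells with a transcript and less of it per cell cannot be told apart.

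The promoters of both catalytic subunits and of both type II regulatory subunits are shown because each pair holds a gene with a 2-fold or larger difference and a close relative with a smaller one. Each runs 5′ to 3′ on the strand of the gene, from 250 bases before to 50 bases after the first listed RefSeq start (GRCh38.p14). Capitals mark GC boxes (GGGCGG, or CCGCCC on the other strand) and the core of the cAMP response element (TGACG, or CGTCA on the other strand).
PRKACB, chr1:84077829-84078128, plus strand: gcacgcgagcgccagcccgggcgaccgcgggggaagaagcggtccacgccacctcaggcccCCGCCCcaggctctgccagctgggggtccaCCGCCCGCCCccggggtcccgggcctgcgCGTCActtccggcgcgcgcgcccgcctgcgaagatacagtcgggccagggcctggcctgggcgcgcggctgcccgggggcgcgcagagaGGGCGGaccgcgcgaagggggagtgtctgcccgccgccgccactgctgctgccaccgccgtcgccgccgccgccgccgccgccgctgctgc
PRKACA, chr19:14117713-14118012, minus strand: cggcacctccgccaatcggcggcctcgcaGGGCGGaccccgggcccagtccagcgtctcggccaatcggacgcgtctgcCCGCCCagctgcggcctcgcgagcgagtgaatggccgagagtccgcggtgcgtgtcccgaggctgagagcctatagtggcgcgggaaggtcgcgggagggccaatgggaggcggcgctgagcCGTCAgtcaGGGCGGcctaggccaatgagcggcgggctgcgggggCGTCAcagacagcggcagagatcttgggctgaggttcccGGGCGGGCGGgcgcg
PRKAR2B, chr7:107044455-107044754, plus strand: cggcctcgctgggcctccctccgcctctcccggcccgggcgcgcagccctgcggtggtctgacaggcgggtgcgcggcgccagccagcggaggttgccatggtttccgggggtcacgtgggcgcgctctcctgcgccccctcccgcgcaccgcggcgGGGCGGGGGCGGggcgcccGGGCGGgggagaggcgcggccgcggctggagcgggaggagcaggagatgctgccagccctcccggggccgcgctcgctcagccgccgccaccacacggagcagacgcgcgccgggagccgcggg
PRKAR2A, chr3:48847825-48848124, minus strand: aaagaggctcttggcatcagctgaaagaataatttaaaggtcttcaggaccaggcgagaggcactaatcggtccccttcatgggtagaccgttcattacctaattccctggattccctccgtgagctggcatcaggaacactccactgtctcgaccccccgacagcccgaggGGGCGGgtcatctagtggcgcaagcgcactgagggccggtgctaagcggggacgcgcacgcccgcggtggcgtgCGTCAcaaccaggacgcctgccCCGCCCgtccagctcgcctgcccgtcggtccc

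Counting overlapping matches of a motif separately, GC boxes numbered 4 in the PRKACB window, 5 in PRKACA, 3 in PRKAR2B and 2 in PRKAR2A, and 44.95% of all 35116 promoters in the RefSeq table held at least 1. The cAMP response core was found 1 time in PRKACB, 2 times in PRKACA and 1 time in PRKAR2A, with 0 matches in PRKAR2B, against 24.6% of all promoters with at least 1. The whole palindrome TGACGTCA, held by 1.85% of all promoters, was in none of these 4 windows. PRKACB has 5 RefSeq starts and PRKACA 2, and values per gene do not show which start was used. These matches describe the letters and are not binding sites.

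Of the 8 genes that reached 1 CPM on average, 1 was at least 2-fold lower in ENZR, where 4.64% of all 13803 genes were, and 1 at least 2-fold higher, where 6.69% were. The lower gene was PRKACB and the higher gene PRKAR2B. The other 6 lay between. A ratio of 1 lay outside the counting interval for 6 of the 8, and for 71.2% of all genes, so that share is near the background at this depth. The median log2 ratio was -0.17 over the 8 genes and -0.01 over all genes, whose quartiles were -0.33 and 0.31.

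**Figure D1:**
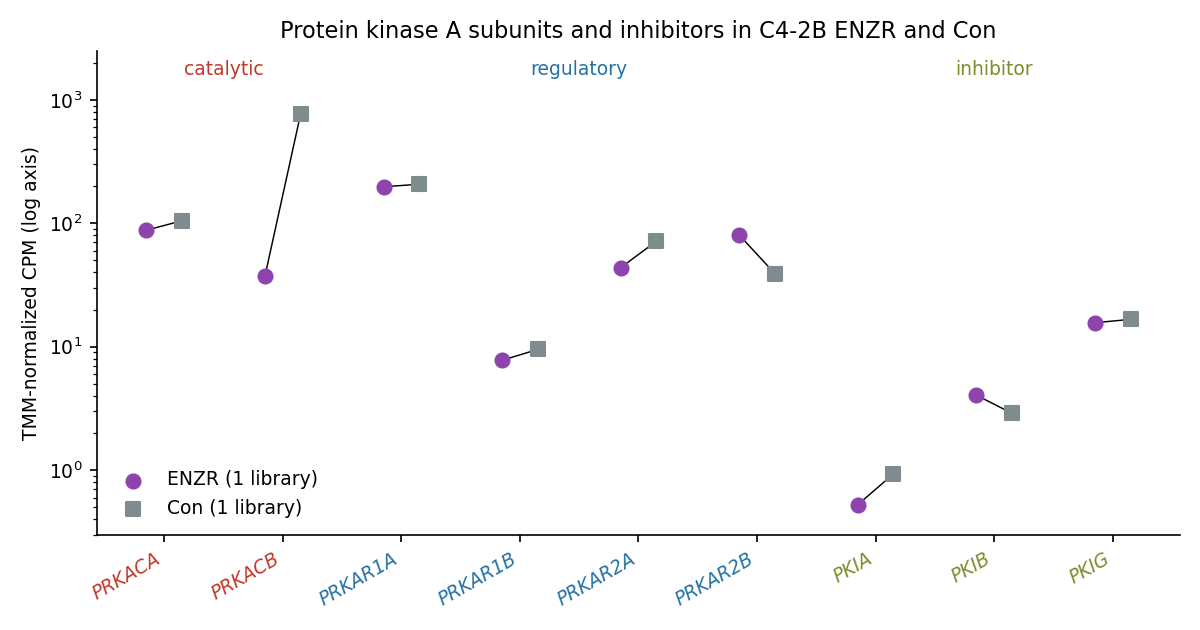
TMM-normalized CPM (log axis) of the 9 genes, with the ENZR library as circles on the left of each pair and the Con library as squares on the right. The PRKACB pair has the steepest line, between 37.4 CPM in ENZR and 765 CPM in Con, and the PRKAR2B and PKIB lines slope the other way.

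PRKACB, which encodes the beta catalytic subunit, had 926 reads or 37.4 CPM in ENZR, against 15607 reads or 765 CPM in Con. It was 20.4-fold lower in ENZR (19.1 to 21.8), a log2 ratio of -4.32. This was rank 17 from the lowest of 13803 genes, of which 160, or 1.16%, were at least 4-fold lower. In CPM the difference of ENZR minus Con was -727, rank 14 from the lowest of all genes.

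PRKACA, the alpha catalytic subunit and the form that most tissues express, had 2174 reads or 87.9 CPM in ENZR, against 2140 reads or 105 CPM in Con. It was 1.19-fold lower (1.12 to 1.27), a log2 ratio of -0.25 that lay at -0.14 with the TMM scaling undone. The ratio of PRKACB to PRKACA reads does not depend on library scaling. It was 17.1-fold lower in ENZR (15.6 to 18.7, exact conditional interval of the odds ratio). Gene length cancels in this fold if each gene used the same transcripts in both libraries. Values per gene do not show whether that was so.

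Levels of different genes were compared per kilobase of coding length. On this scale PRKACB was at 31.4 in ENZR and 640.4 in Con, and PRKACA at 83.5 in ENZR and 99.6 in Con. PRKACB thus made up 27.3% of the catalytic level in ENZR (25.8 to 28.9) and 86.5% in Con (86.01 to 87.07). Per transcript length in place of coding length the shares were 20.2% in ENZR and 81.2% in Con. The larger catalytic transcript was PRKACA in ENZR and PRKACB in Con with either length.

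The split between the paralogs rests on reads of 50 bases, so the words of that length in the coding transcripts of each gene (GENCODE 29) were searched in the transcripts of all other genes. None of the 6623 words of PRKACB occurred in another gene, and 1 of the 3215 words of PRKACA did, in PRKACG. The search took exact matches in GENCODE 29 only, so words that differ by a base or more were not counted. It therefore does not show how reads of similar sequence were placed. PRKACG, a catalytic gene known from testis, had no read in either library, below 0.121 CPM in ENZR and 0.147 CPM in Con, the worth of 3 counts. PRKX, a related kinase on the X chromosome that PKI proteins also inhibit, stood at 66.9 CPM in ENZR and 62.6 CPM in Con, and the counting interval of PRKX ran from 0.992 to 1.15.

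**Figure D2:**
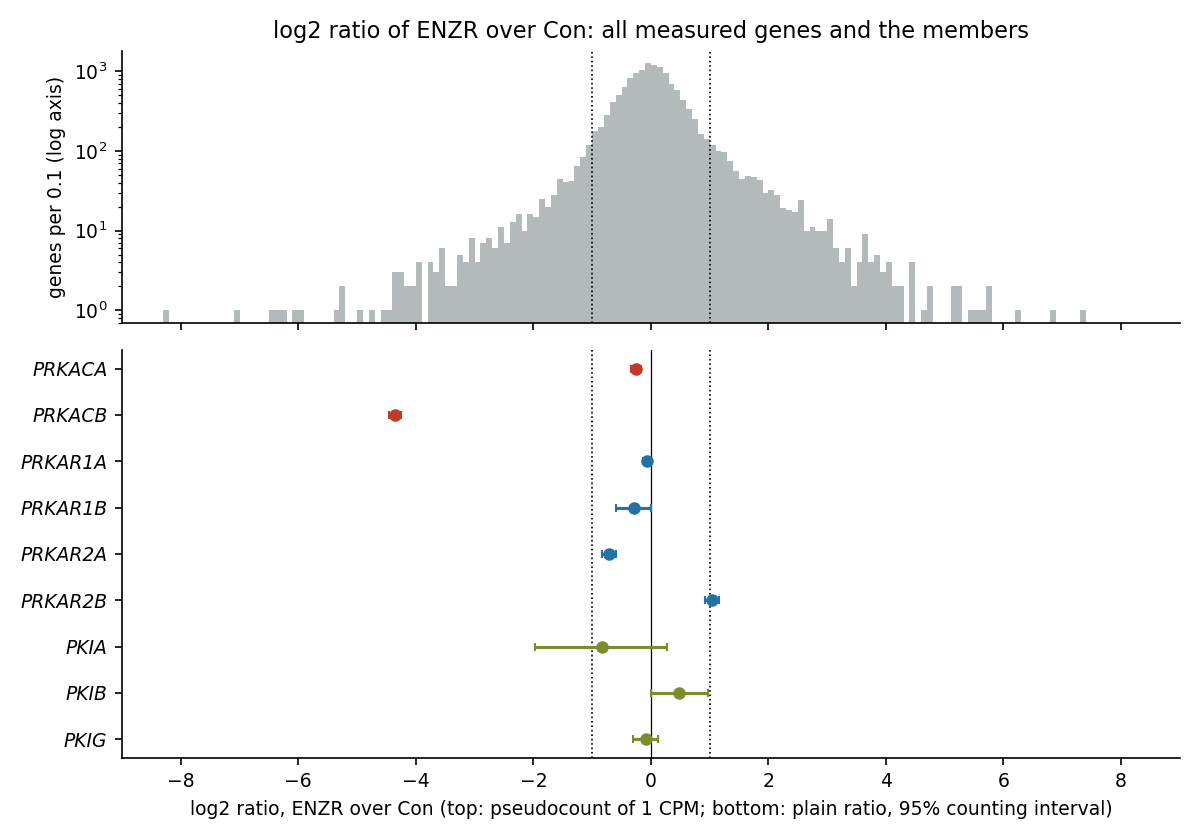
Log2 ratios of ENZR over Con. The top panel is the histogram of all 13803 measured genes (pseudocount of 1 CPM, log axis of counts). The bottom panel gives the plain ratio, without pseudocount, of each of the 9 genes with its 95% counting interval. Dotted lines mark 2-fold. PRKACB stands alone at the left, PRKAR2B sits on the line of 2-fold higher, and the interval of PKIA is the widest.

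Among the regulatory subunits the type II pair differed in opposite directions. PRKAR2B, the RII-beta subunit known best from brain and fat, had 1985 reads or 80.3 CPM in ENZR, against 799 reads or 39.1 CPM in Con. It was 2.05-fold higher (1.89 to 2.23), with a log2 ratio of 1.02 that lies at the 2-fold threshold and became 0.95 with a pseudocount of 5 CPM. PRKAR2A, the RII-alpha subunit, had 1081 reads or 43.7 CPM in ENZR, against 1459 reads or 71.5 CPM in Con, 1.64-fold lower (1.51 to 1.77). The ratio of PRKAR2B to PRKAR2A reads was 3.35-fold higher in ENZR (2.99 to 3.76).

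The type I subunits differed less. PRKAR1A, the RI-alpha subunit whose loss causes Carney complex, had 4888 reads or 198 CPM in ENZR, against 4229 reads or 207 CPM in Con. Its ratio was 0.954 (0.915 to 0.994), and its log2 ratio of -0.07 turned to 0.05 both with the TMM scaling undone and without the 10 most abundant genes. PRKAR1B, the RI-beta subunit found mainly in neurons, had 192 reads or 7.76 CPM in ENZR and 194 reads or 9.50 CPM in Con, and the counting interval of its ratio (0.666 to 1.002) holds 1.

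Some reads of these genes cannot be placed with certainty. Of the 50-base words of PRKAR1A, 7.72% occurred in other genes, 501 of them in AC007780.1, and for PRKAR2A the share was 3.85%, 226 words of which lay in its antisense gene PRKAR2A-AS1. PRKAR2A-AS1 stood at 14.5 CPM in ENZR and 17.9 CPM in Con, and the use of strand in counting is not given in the sources used here. PRKAR1B shared 60 words with DNAAF5, which overlaps it, and PRKAR2B shared none.

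Per kilobase of coding length the 4 regulatory subunits summed to 279.8 CPM in ENZR and 279.8 CPM in Con. PRKAR1A was the largest at 173 in ENZR and 181 in Con. PRKAR2B held 64.0 in ENZR and 31.2 in Con, and PRKAR2A 36.1 in ENZR and 59.0 in Con. The larger type II transcript was therefore PRKAR2B in ENZR and PRKAR2A in Con. Per transcript length PRKAR2B was also the larger in ENZR, at 21.4 against 6.76 for PRKAR2A, and the pair lay close in Con, at 10.5 for PRKAR2B and 11.05 for PRKAR2A.

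Of the inhibitors, PKIG was the most abundant, with 387 reads or 15.6 CPM in ENZR, against 340 reads or 16.7 CPM in Con. Its ratio was 0.940 (0.810 to 1.09), and its log2 ratio of -0.08 became 0.03 with the TMM scaling undone and 0.02 without the 10 most abundant genes. PKIB, which has been studied in castration-resistant prostate cancer, had 100 reads or 4.04 CPM in ENZR, against 59 reads or 2.89 CPM in Con, 1.40-fold higher with a counting interval that reaches down to 1.004. PKIA, the inhibitor first purified from rabbit muscle, fell under the filter with 13 reads or 0.526 CPM in ENZR and 19 reads or 0.931 CPM in Con, and the interval of its ratio ran from 0.256 to 1.21. None of the 3 inhibitors was past 2-fold. Of the 50-base words of PKIB, 5.72% also lay in Z99129.3.

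**Figure D3:**
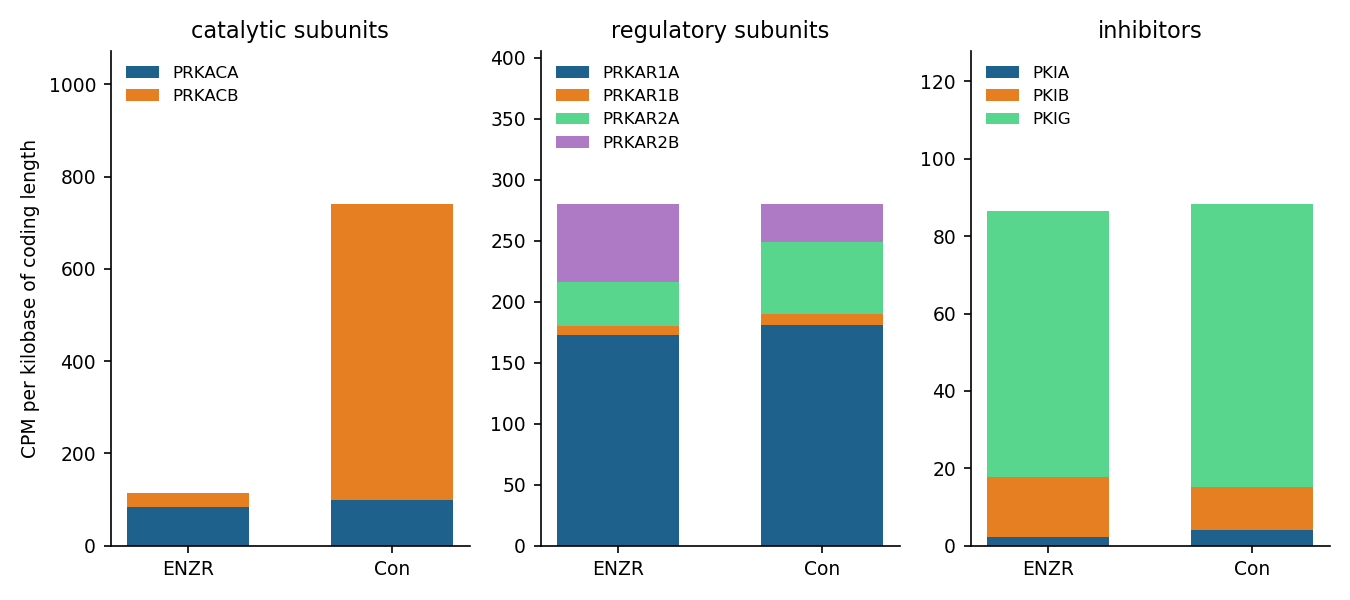
Summed CPM per kilobase of coding length of the catalytic subunits, the regulatory subunits and the inhibitors, with the ENZR library on the left and the Con library on the right of each panel and each gene as a colored segment (1 library per bar, so no error bars). The catalytic bar is short in ENZR because the PRKACB segment is small there, while the regulatory and inhibitor bars are of like height in both libraries.

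The balance between the classes follows from these values. The catalytic subunits summed to 115 CPM per kilobase of coding length in ENZR and 739.9 in Con, and the inhibitors to 86.4 in ENZR and 88.2 in Con. The ratio of regulatory to catalytic transcripts was 2.44 in ENZR and 0.378 in Con, 6.44-fold higher in ENZR. Per transcript length it was 1.87 in ENZR and 0.350 in Con, 5.33-fold higher.

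The ratio of inhibitor to catalytic transcripts was 0.753 in ENZR and 0.119 in Con. Its size depends on the length used, since coding sequence takes 228 of the 1489 bases of the longest PKIG transcript, and per transcript length it was 0.309 in ENZR and 0.0619 in Con. Ratios within a library do not depend on scaling. They compare transcripts and not proteins, whose levels were not measured.

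In the order of levels per coding length, PRKACB took place 6 of 9 in ENZR and place 1 in Con. PRKAR1A was at place 1 in ENZR and 2 in Con, PRKACA at 2 in ENZR and 3 in Con, and PRKAR2B at 4 in ENZR and 6 in Con. PKIA was last in both libraries. Per transcript length PRKACB took place 5 in ENZR and 1 in Con. Without replicates, it cannot be said which neighbours in these orders differ beyond the spread between cultures.

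The chromosomal surroundings of PRKACB held other genes with large differences. Over the 10 measured genes on each side, in the order of the RefSeq gene table, the median log2 ratio was -0.01, with 10 of 20 genes below 0. Of the 20, 4 were at least 2-fold lower, where 4.64% of all genes were, and 1 at least 2-fold higher, where 6.69% were. Neighbours at least 2-fold lower also lay around other members, but PRKACB had the most of any member. Around PRKAR1A, 3 of 20 were at least 2-fold lower and 1 higher, and around PRKACA 2 were lower and 2 higher. Around PRKAR2B 1 of 20 was lower and around PRKAR1B 1 of 11. Around PRKAR2A, PKIA, PKIB and PKIG 0 of 20 were. The lowest neighbour log2 ratio was -6.29 around PRKACB, while around the other members it went no lower than -1.94, near PRKACA. The 2 measured genes that follow PRKACB were both lower. SAMD13 was at 0.809 CPM in ENZR and 8.92 CPM in Con, and DNASE2B, a DNase II relative, at 0.243 CPM in ENZR and 9.06 CPM in Con. On the other side, TTLL7, a tubulin polyglutamylase next to PRKACB, was at 25.4 CPM in ENZR and 22.4 CPM in Con. Further out on each side lay PTGFR, the prostaglandin F receptor, at 0.0809 CPM in ENZR and 83.8 CPM in Con, and GNG5, a G protein gamma subunit, at 91.3 CPM in ENZR and 210.03 CPM in Con. The ENZR value of PTGFR lies below 0.121 CPM, the worth of 3 counts in ENZR. SAMD13, DNASE2B, TTLL7, PTGFR and GNG5 were named after their values were seen.

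With 5 genes on each side the median around PRKACB was -0.50, and with 20 on each side 0.12. Whether the low neighbours and the low PRKACB share a cause was not tested.

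PRKAR2B differed from its surroundings in the other direction. The 20 neighbours had a median log2 ratio of -0.39, and 16 of them were below 0, with 1 at least 2-fold lower and 1, LAMB1 (named after its values were seen), at least 2-fold higher. PRKAR2B lay 1.40 above that median. PRKAR2A lay 0.55 below the median of its own neighbours, which was -0.15. PRKACA lay 0.13 above a neighbour median of -0.38, with 18 of 20 neighbours below 0.

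**Figure D4:**
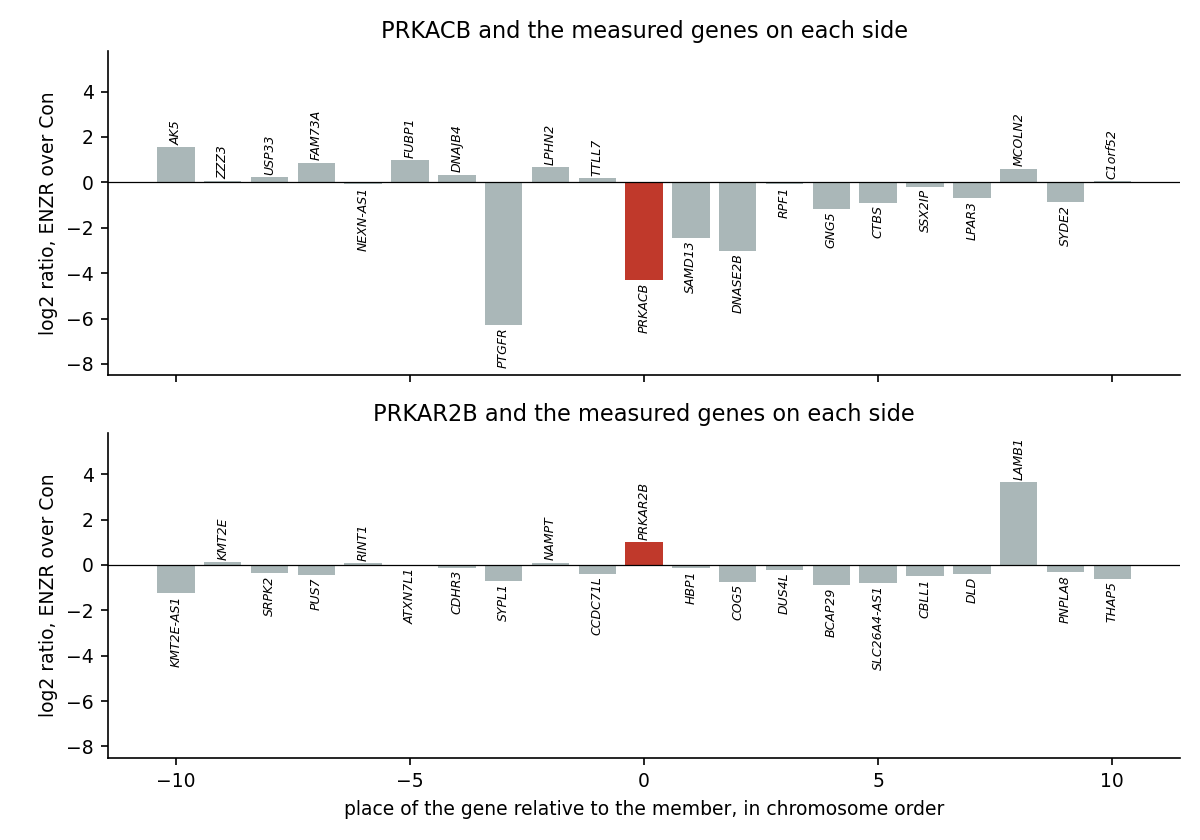
Log2 ratio of ENZR over Con (pseudocount of 1 CPM) for PRKACB and PRKAR2B (dark bars at 0) and the 10 measured genes on each side, by place in chromosome order (1 library per group, so no error bars). The bars just right of PRKACB, SAMD13 and DNASE2B, point down with it, and PTGFR on the left reaches further down, to -6.29. Most bars around PRKAR2B are small and negative, but LAMB1 stands at 3.65 and KMT2E-AS1 at -1.24.

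The rest of the pathway was described with 9 lists of 141 genes, of which 93 had a mean of 1 CPM or more. Of these, 7 passed 2-fold upward in ENZR and 7 downward, 7.53% each way, beside 6.69% and 4.64% of all genes. Their log2 ratios ran from -2.02 to 1.85 with a median of 0.12. The lowest of them, HCN2 at -2.02, lay above PRKACB at -4.32.

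Among the 22 measured anchoring proteins, 1 passed 2-fold in each direction, with a median of 0.09. MAP2, a neuronal microtubule protein that binds type II regulatory subunits, stood at 24.3 CPM in ENZR and 10.2 CPM in Con, 2.39-fold higher (2.04 to 2.81). MYRIP, which links secretory granules to myosin, was at 11.2 CPM in ENZR and 32.8 CPM in Con, 2.93-fold lower (2.54 to 3.38). AKAP1, which anchors the kinase to mitochondria, was at 173 CPM in ENZR and 246 CPM in Con, 1.42-fold lower.

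Of 4 direct regulators, GPR161, an orphan receptor of primary cilia that anchors type I regulatory subunits, stood at 39.7 CPM in ENZR and 12.0 CPM in Con, 3.31-fold higher (2.87 to 3.82). PDPK1, which phosphorylates the activation loop of the catalytic subunits, was at 118 CPM in ENZR and 143 CPM in Con. PJA2, a ubiquitin ligase of the regulatory subunits, was at 84.5 CPM in ENZR and 86.6 CPM in Con. AKIP1, which binds the catalytic subunit, was at 33.1 CPM in ENZR and 30.6 CPM in Con.

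None of the 11 CREB factors and coactivators was past 2-fold, and their median was 0.23. CREB1 stood at 71.6 CPM in ENZR and 66.6 CPM in Con. Its relatives were ATF1, at 31.0 CPM in ENZR and 43.2 CPM in Con, and CREM, at 12.1 CPM in ENZR and 12.0 CPM in Con.

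Of 14 measured CREB target genes, 2 passed 2-fold in each direction, with a median of 0.13. The higher ones were the clock genes PER1 (43.9 CPM in ENZR, 21.4 CPM in Con) and PER2 (58.6 CPM in ENZR, 27.8 CPM in Con). The log2 ratios of PER1 (1.01) and PER2 (1.05) lie close to the 2-fold threshold. The lower ones were VGF, a granule peptide precursor (3.15 CPM in ENZR, 14.1 CPM in Con), and RGS2, a brake on G protein signalling (1.01 CPM in ENZR, 3.48 CPM in Con). RGS2 had 25 reads in ENZR and 71 in Con, and was 3.44-fold lower (2.15 to 5.67). In all, 9 of the 14 lay above 0 and 5 below.

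Of 22 measured substrates, 2 passed 2-fold in each direction, with a median of 0.26. ITPR1, the inositol trisphosphate receptor of the endoplasmic reticulum, was at 46.1 CPM in ENZR and 13.3 CPM in Con, 3.46-fold higher (3.03 to 3.96), and MAP2 is on this list too. RYR2, the other kind of calcium release channel, was at 5.18 CPM in ENZR and 16.02 CPM in Con, 3.10-fold lower (2.52 to 3.83). GLI3, a Hedgehog factor that is processed to its repressor form after phosphorylation by protein kinase A, was at 4.61 CPM in ENZR and 10.5 CPM in Con, 2.27-fold lower (1.80 to 2.88). The log2 ratio of GLI3, -1.03, lies close to the 2-fold threshold.

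On the side of cAMP itself, none of the 7 measured synthesis genes was past 2-fold, and GNAS, the stimulatory G protein subunit, stood at 966 CPM in ENZR and 724 CPM in Con. Of 10 measured phosphodiesterases, PDE10A and PDE1A were at least 2-fold higher and PDE4A at least 2-fold lower. PDE10A was at 6.83 CPM in ENZR and 1.18 CPM in Con, 5.81-fold higher (3.78 to 9.32), on 24 reads in Con. PDE1A was at 4.97 CPM in ENZR and 0.931 CPM in Con, 5.34-fold higher (3.28 to 9.18), on 19 reads in Con. PDE4A was at 4.93 CPM in ENZR and 12.2 CPM in Con, 2.47-fold lower (1.98 to 3.10). Of 6 measured cAMP effectors outside the kinase, HCN2, a cAMP-gated pacemaker channel, was at 1.42 CPM in ENZR and 8.77 CPM in Con, 6.20-fold lower (4.29 to 9.18).

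**Figure D5:**
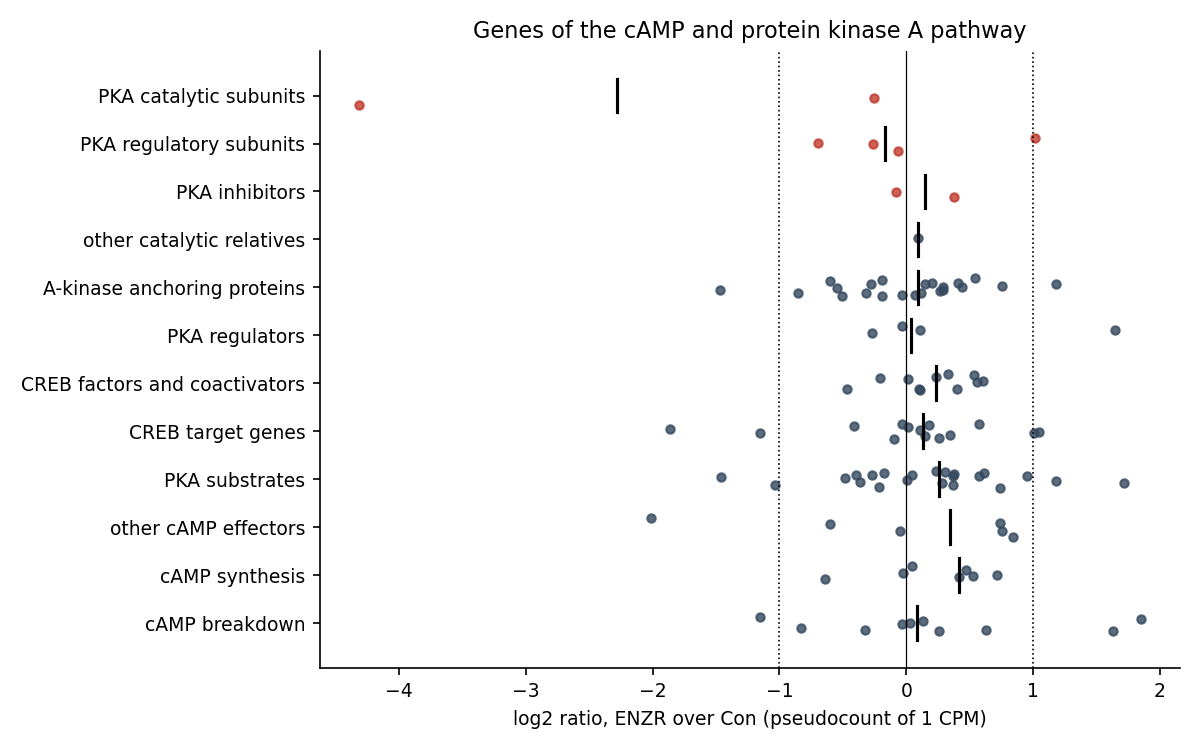
Log2 ratio of ENZR over Con for each measured gene of the 12 lists, 1 point per gene and a black bar at each list's median, with dotted lines at 2-fold. PRKACB is the point far to the left, at -4.32, and the other lists scatter on both sides of 0.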

How the data were processed

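The deposited signal values are TMM-normalized CPM, per the name the authors gave their table. Tools listed in the submitters' processing notes are RSEM 1.2.15, Bowtie2 2.1.0 and edgeR, with build hg19 and no role for each, and the annotation is not given in the sources used here. Reads were single, of 50 bases, per the labels' protocols. RSEM shares reads between similar genes, so values of genes with shared sequence depend on that step. The table held 0 further sample columns.

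Every value was a whole multiple of 1 step per column (100% of values within 0.01 reads), so whole reads were recovered. These may be rounded RSEM estimates. Because 1 library per group leaves no residual degrees of freedom, no count test was run on them. A fold of 2 on the log2 scale (pseudocount 1 CPM, mean of 1 CPM or more) was used to count genes. The members and lists were chosen with earlier results of these data known. Named genes are all 9 members, up to 3 genes per list and direction past 2-fold, and 9 direct partners. The calculation was tested on simulated reads. Lengths and 50-base words come from GENCODE 29 and gene order from RefSeq (GRCh38.p14), to which 95.0% of symbols matched. Promoter sequences are from RefSeq. Python 3.11.15, SciPy 1.17.1 and, for recomputed TMM factors, edgeR 4.0.16 were used. Alternatives changed the pseudocount, filter, scaling, length and number of neighbours.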

Additional observations from a re-analysis of the deposited data

How the results depend on the processing

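PRKACB kept a log2 ratio between -4.35 and -4.18 over 9 alternatives, PRKAR2A between -0.71 and -0.58, PRKACA between -0.26 and -0.14, and PRKAR2B between 0.95 and 1.13. A change of filter cannot alter the ratio of a single gene. A change of scaling shifts all genes nearly alike, by 0.12 at most, so these ranges are narrow by construction. With a pseudocount of 5 CPM, 0 of the 9 genes was at least 2-fold higher, because PRKAR2B lies at the threshold, and over all genes 447 were higher and 371 lower, where 923 and 641 were so at 1 CPM. With a mean of 5 CPM or more, 577 were higher. Undoing the TMM scaling moved the median log2 ratio of all genes to 0.10, and PRKAR1A (-0.07 as reported) turned to 0.0494 and PKIG to 0.0259. Without the 10 most abundant genes they were at 0.0477 and 0.0243. The share of PRKACB in the catalytic level was 20.2% in ENZR and 81.2% in Con per transcript length (an alternative added after the data were seen), and 29.9% in ENZR without division by length. The median of the inhibitors turned to -0.0848 without the filter and with a mean of 5 CPM or more, where the other cAMP effectors turned to -0.60 and the phosphodiesterases to -0.000632. The neighbours of PRKACB turned to 0.12 with 20 genes on each side, and those of PRKAR1B to -0.23 with 5. The inhibitor median is over 2 measured genes, PKIG and PKIB, and PKIB (mean 3.47 CPM) drops out at 5 CPM. Without the filter PKIA enters and PKIG is the middle value. At a mean of 5 CPM or more the other cAMP effectors left were RAPGEF3 (-0.60), BVES (0.76) and HCN2 (-2.02), with RAPGEF3 as the middle value. The middle values of the phosphodiesterases left there were PDE7A (-0.03) and PDE8A (0.03). For the neighbour medians the cause was not tested. No paired analysis was possible because each group has 1 library, and for the same reason no replicate could be left out. Among the members, depth limits PKIA, with 13 reads in ENZR and 19 in Con, and PKIB, with 100 reads in ENZR and 59 in Con. Among the named genes of the lists it also limits PDE10A, with 24 reads in Con, PDE1A, with 19 in Con, RGS2, with 25 in ENZR, and HCN2, with 35 in ENZR. Among the named neighbours of PRKACB it limits SAMD13 (0.809 CPM in ENZR), DNASE2B (0.243 CPM in ENZR) and PTGFR (0.0809 CPM in ENZR).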

Other observations

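Of the members whose promoters are not printed, PKIA was left out of the motif search. PRKAR1A held the whole cAMP response palindrome TGACGTCA in 2 overlapping windows of its 5 RefSeq starts, whereas 1.85% of all 35116 promoters held it. The first PKIB window held 3 matches to its core TGACG or CGTCA, and neither PKIG window held any. The 4 later PRKACB windows had a GC content of 32.7% to 35%, against 81.3% in the first, and held 0 GC boxes. These windows are described by their letters, and the values per gene do not tell the starts apart.

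Around the remaining members, the 20 nearest measured genes had a median log2 ratio of 0.09 for PRKAR1A, 0.11 for PKIB, 0.36 for PKIG and -0.02 for PKIA, and the 11 near the end of chromosome 7 had 0.08 for PRKAR1B. PKIG lay 0.45 below the median of its 20 neighbours, of which 4 were at least 2-fold higher in ENZR, where 6.69% of all genes were. ARSG, an arylsulfatase gene whose span overlaps that of PRKAR1A in RefSeq, stood at 4.003 CPM in ENZR and 16.9 CPM in Con. By start position SLC16A6, the nearest measured gene before PRKAR1A, had a log2 ratio of -1.54. WIPI1, the nearest after it by start position, had -0.09, and its span also overlaps that of PRKAR1A. That span begins at 68413623 on chromosome 17, whereas the 5 listed PRKAR1A start windows lie between 68511750 and 68515443. The order and overlaps given here follow the span and not those starts. ARSG, SLC16A6 and WIPI1 were named after their values were seen.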
